A study of Mus musculus with 30 samples.

Results

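Amino acid transporters carry amino acids across the plasma membrane, and 10 of them, chosen by name for their part in the amino acid supply of muscle, were followed here out of 56951 gene symbols in the deposited tables. They were Slc7a5, Slc3a2, Slc7a1, Slc7a2, Slc7a8, Slc38a1, Slc38a2, Slc38a4, Slc1a5 and Slc36a2. Each symbol stood on 1 row. Of the 10, 9 were among the 12030 genes abundant enough to be tested, and Slc38a1 was not.

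The study exposed wild-type male C57BL/6J mice, aged 14 weeks at the start, to either of 2 lighting schedules for 64 weeks. LD mice (n = 14) stayed on a fixed cycle with lights on from 8:00 to 20:00, and ADV mice (n = 16) had that cycle advanced by 8 h every 4 days, a form of chronic jet lag. Before this, all mice spent 2 weeks on the fixed cycle and 2 weeks in constant darkness. All mice lived alone with a running wheel. The gastrocnemius, with the adjoining plantaris, was taken over several hours of the light period at a time when both groups were on the same cycle. The labels do not give the hour for each mouse. Poly(A) RNA of each mouse gave 1 library with 18875468.5 to 28512674 reads on exons (a mate counts as 0.5). The tissue label was borne out, since 8 markers of muscle fibers, mostly of fast ones, summed to 59100 to 82100 FPKM in LD mice, against 59100 to 80900 FPKM in ADV mice. FPKM is the number of fragments per kilobase of exon, scaled to the size of the library, and is the level scale used below.

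Amino acid transporters of these families work in relays. Slc7a5 (LAT1) exchanges large neutral amino acids such as leucine for glutamine once it is joined to the heavy chain Slc3a2 (CD98hc, 4F2hc), which is also the partner of Slc7a8 (LAT2). Slc38a2 (SNAT2), with Slc38a1 (SNAT1) and Slc38a4 (SNAT4), uses the sodium gradient to concentrate small neutral amino acids, and Slc1a5 (ASCT2) exchanges neutral amino acids in a sodium-dependent way. Slc7a1 (CAT1) and Slc7a2 (CAT2) take up arginine, lysine and ornithine, and Slc36a2 (PAT2) moves glycine, alanine and proline together with protons. Several of these genes are textbook targets of ATF4, the transcription factor whose translation rises when the kinase GCN2 senses uncharged tRNA, and leucine carried by Slc7a5 activates mTORC1, which promotes protein synthesis in muscle.

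The DNA letters around the transcript starts are shown because ATF4 binds, with C/EBP proteins, to an element whose core is TGATGCAA. In the region from 1000 bases before to 2000 bases after the start of each row, searched on both strands of GRCm39, this core was present at 3 of the 10 members and at 5.93% of 12029 genes tested. All 3 copies lay in intron 1. The copy of Slc38a2 began 547 bases after the start (chr15:96597047-96597076, read on the minus strand, the strand of the gene) and was on the opposite strand, so its letters are the reverse complement. The copy of Slc7a1 began 398 bases after the start (chr5:148336299-148336328, minus strand), and that of Slc38a1 461 bases after it (chr15:96540316-96540345, minus strand). Capitals mark the core.
Slc38a2: gcccctcggtaTTGCATCAgttcctcccgg
Slc7a1: ggcgtggtgcaTGATGCAAcagcgggaggg
Slc38a1: tggggggaaacTGATGCAAccagccctggg

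The looser core TGATGNAA, which includes these copies, was present at 5 of the 10 members and at 27.9% of all genes tested. The region of Slc7a5 held neither form. It held 3 copies of the palindrome CACGTG, the E-box bound by the clock factors BMAL1 and CLOCK among others, which 41% of genes tested had at least once. These copies lay 157 bases before the start (chr8:122634573-122634602) and in intron 1, 798 bases (chr8:122633619-122633648) and 979 bases (chr8:122633438-122633467) after it, all read on the minus strand. Capitals mark the palindrome.
Slc7a5, before the start: atcttaacgctcCACGTGctctaacagact
Slc7a5, intron 1, first copy: ggccccagaaccCACGTGcgtttctttaat
Slc7a5, intron 1, second copy: tcagcaaagcacCACGTGgagtggcagata

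Of the 10 members, 8 had a CACGTG in this region. In the narrower RefSeq promoters of build GRCm38.p6, which hold 250 bases before and 50 after a start, 5 members matched with 8 promoters, and none of the 8 held any of the 3 motifs, against 3.97% of 32851 promoters for TGATGNAA, 0.895% for TGATGCAA and 7.15% for CACGTG. Around the row starts used above, CACGTG did lie within 250 bases before the start, at Slc7a5 (157 bases) and Slc7a2 (227 and 16 bases). The absence therefore holds only for the 8 matched promoters. A match or its absence is a property of these letters alone, and no binding was measured.

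The members covered a wide range of levels. By the mean over all 30 mice the order was Slc38a2 (41.5 FPKM), Slc38a4 (25.0 FPKM), Slc3a2 (12.9 FPKM), Slc1a5 (10 FPKM), Slc7a2 (6.26 FPKM), Slc7a8 (5.26 FPKM), Slc36a2 (0.993 FPKM), Slc7a1 (0.741 FPKM), Slc7a5 (0.704 FPKM) and Slc38a1 (0.137 FPKM). Slc38a2 exceeded Slc38a4 in 27 of 30 mice, Slc38a4 exceeded Slc3a2 in 29, Slc3a2 exceeded Slc1a5 in 25 and Slc1a5 exceeded Slc7a2 in 26. Slc7a2 and Slc7a8 were less clearly ordered, with Slc7a2 higher in 21 of 30 mice. The low neighbours Slc36a2, Slc7a1 and Slc7a5 could not be ordered beyond their spread, since each exceeded the next in only 18 of 30 mice. Slc7a8 exceeded Slc36a2, and Slc7a5 exceeded Slc38a1, in all 30.

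**Figure D1:**
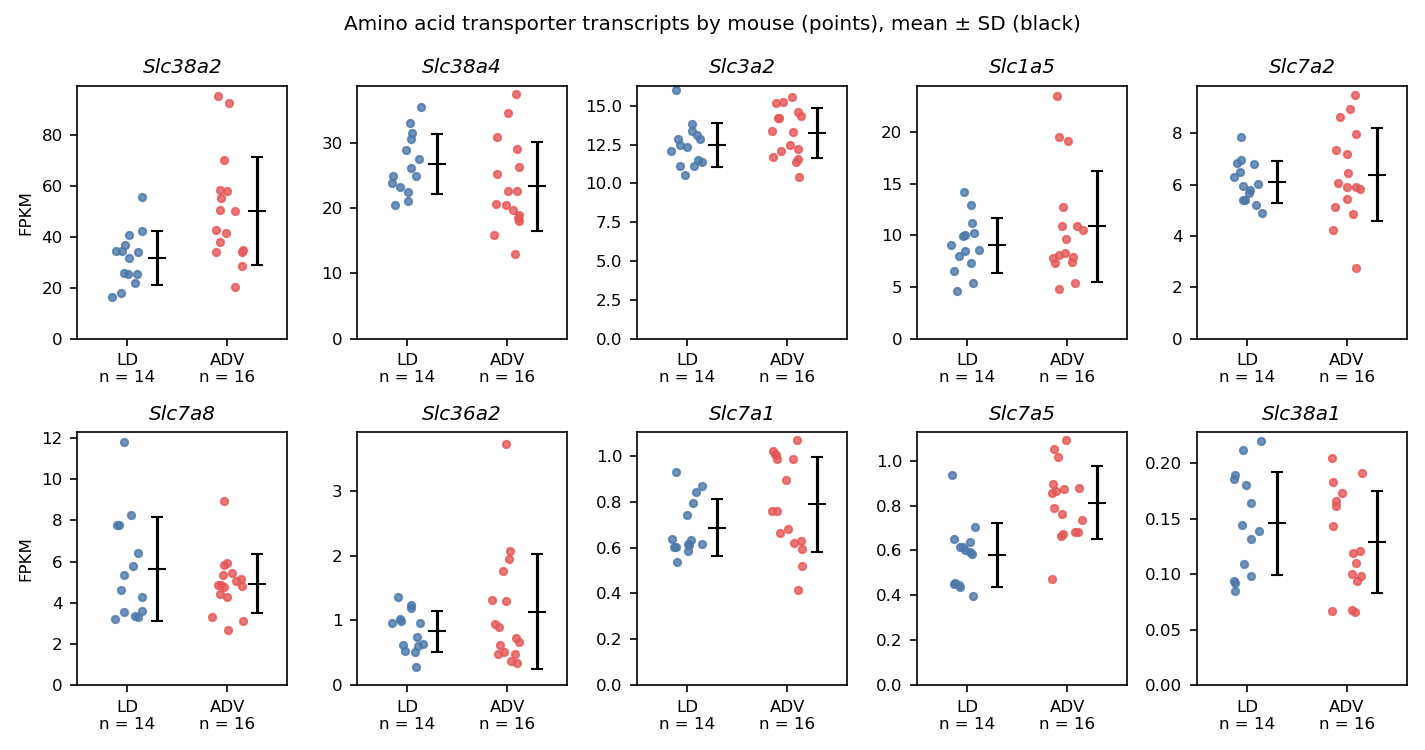
Level of each of the 10 amino acid transporter transcripts in FPKM, with 1 point per mouse for LD mice (n = 14) and ADV mice (n = 16) and black bars for mean ± SD. Each panel has its own scale. Slc38a2 reached 95.2 FPKM in ADV mice against 55.7 FPKM at most in LD mice, and Slc7a5 stayed near or under 1 FPKM in both.

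To ask whether the schedules changed these transcripts, edgeR's quasi-likelihood test was run on the counts of both groups, and a gene was called when its FDR over all genes tested was under 0.05 and its fold change over 1.3. Slc38a2 and Slc7a5 were called, both higher in ADV mice, and the other 7 tested members were not. Thus 2 of 9 members tested were called, where 2.09% of all 12030 genes tested were called in either direction, 1.45% were called higher and 0.648% lower. With FDR under 0.05 alone the members' count stayed 2 of 9, beside 10.8% of all genes. The members were chosen with earlier results of these data known, so that these shares are a description and no test of the members as a set. The median log2 fold change of the 9 members was 0.18, with 7 of 9 above 0, and that of all genes tested was 0.00. Since the counts come from whole muscle, a difference in cell make-up and a difference in RNA per cell cannot be told apart.

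Slc38a2, a sodium-coupled transporter that loads cells with glutamine and alanine, was the most abundant member and had the largest difference of the 9 tested. In LD mice its lowest, median and highest levels were 16.1, 32.7 and 55.7 FPKM, and in ADV mice 20.2, 46.4 and 95.2 FPKM. The groups overlapped widely, but 14 of 16 ADV mice were above the LD median, 5 were above every LD mouse, and 2 LD mice were below every ADV mouse. The mean was 31.5 ± 10.6 FPKM (SD, n = 14) in LD mice, against 50.2 ± 21.2 FPKM (n = 16) in ADV mice. The log2 fold change was 0.66 (standard error 0.19, 95% interval 0.26 to 1.05, edgeR FDR = 0.0276), a rise of 57.6%. Leaving out ADV mouse 25, which had the highest level, gave an FDR of 0.0528, the only one of the 30 single-mouse removals to end the call.

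Slc7a5, the leucine carrier, was 1 of the least abundant members and had a mean of only 60.4 reads per library. Its lowest, median and highest levels were 0.399, 0.596 and 0.938 FPKM in LD mice, against 0.471, 0.822 and 1.09 FPKM in ADV mice. The LD median was exceeded by 15 of 16 ADV mice, 3 of which were above every LD mouse, and 5 of 14 LD mice were below every ADV mouse. The log2 fold change was 0.46 (standard error 0.11, 95% interval 0.23 to 0.69, edgeR FDR = 0.0111), a rise of 37.3%, and every single-mouse removal kept the call (FDR 0.00341 to 0.021). The call ended with a score of the clock genes as a covariate (log2 fold change 0.39, FDR = 0.219). It ended too with heat shock genes (0.25, FDR = 0.354), a covariate chosen after the values were seen. Through the fold change limit it ended with limma on log2(FPKM + 1) and with adipocyte markers as a covariate (0.37, FDR = 0.0359). With the mouse number as a block over 28 libraries the FDR of Slc7a5 was 0.0531. Slc38a2 lost its call with the clock score (0.61, FDR = 0.24) and the heat shock genes (-0.07, FDR = 0.823). In those 28 libraries it had no call with or without the block. On FPKM, the exact Wilcoxon rank-sum test gave p = 0.000119 for Slc7a5 and p = 0.00449 for Slc38a2, with FDR over all genes of 0.0076 and 0.0465.

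**Figure D2:**
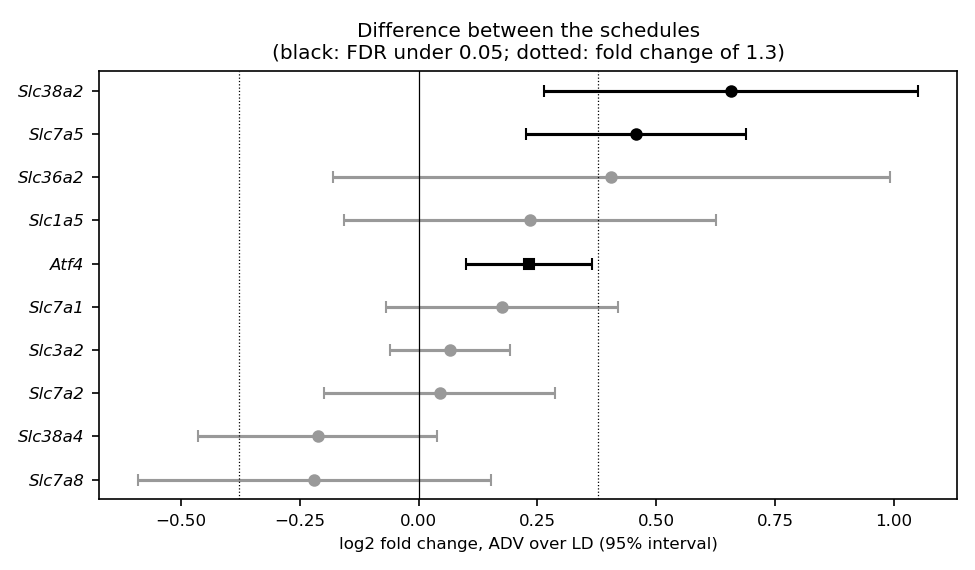
Log2 fold change of the ADV group over the LD group for the 9 tested members (circles) and Atf4 (square), with 95% intervals from edgeR. Only Slc38a2, Slc7a5 and Atf4 had an FDR under 0.05 (black), and the interval of Atf4 (0.10 to 0.37) ended short of the dotted line at a fold change of 1.3.

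The heavy chain Slc3a2 had nearly the same level in both groups, unlike its light chain Slc7a5. Slc3a2 had 12.5 ± 1.39 FPKM in LD mice, against 13.2 ± 1.59 FPKM in ADV mice, with 10 of 16 ADV mice above the LD median. Its log2 fold change was 0.07 (95% interval -0.06 to 0.19, edgeR FDR = 0.486), so that the interval lay within a fold change of 1.3 on both sides. The log2 difference between Slc7a5 and Slc3a2 within a mouse, chosen after the values were seen and given with no test, averaged -3.47 ± 0.32 in LD mice, against -3.07 ± 0.33 in ADV mice. This difference was above the LD median in 14 of 16 ADV mice.

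Slc3a2 also pairs with other light chains. Slc7a8 was the most abundant of these at 5.65 ± 2.53 FPKM in LD mice, against 4.93 ± 1.42 FPKM in ADV mice, followed by Slc7a6 (y+LAT2, which exchanges cationic for neutral amino acids) at 3.46 ± 0.29 and 3.43 ± 0.30 FPKM. The 6 known partners Slc7a5, Slc7a6, Slc7a7, Slc7a8, Slc7a10 and Slc7a11 summed to 11 ± 2.45 FPKM in LD mice, against 10.9 ± 1.82 FPKM in ADV mice, of which Slc7a5 gave 0.58 and 0.812 FPKM. Slc7a8 ranged from 3.20 to 11.8 FPKM in LD mice with a median of 4.99 FPKM, and from 2.68 to 8.93 FPKM in ADV mice with a median of 4.88 FPKM. Its log2 fold change was -0.22 (95% interval -0.59 to 0.15, edgeR FDR = 0.428), and a difference of this size could not be told from 0.

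Of the 3 members of the Slc38 family, Slc38a2 alone passed the test. The 3 genes lie side by side on the minus strand of chromosome 15 (GRCm39), with Slc38a1 at 96469299 to 96540794, Slc38a2 at 96585273 to 96597611 and Slc38a4 at 96892704 to 96953837, and with gaps of 44.5 kb and 295.1 kb between them. Slc38a4, a sodium-coupled carrier known from liver and muscle and an imprinted gene in the mouse, had lowest, median and highest levels of 20.5, 25.6 and 35.5 FPKM in LD mice, against 12.9, 21.6 and 37.5 FPKM in ADV mice. Every LD mouse was above 7 of the 16 ADV mice and below 1 of them. The log2 fold change of -0.21 (95% interval -0.46 to 0.04, edgeR FDR = 0.243) did not pass the test. The log2 difference between Slc38a2 and Slc38a4 within a mouse, also chosen after the values were seen and given with no test, averaged 0.43 ± 0.53 in LD mice, against 1.29 ± 0.81 in ADV mice.

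Slc38a1, the neighbour on the other side, was the least abundant member. It had 15.0 to 42.0 reads (median 24.5) in LD mice and 10.5 to 34 reads (median 21.75) in ADV mice, that is 0.146 ± 0.05 and 0.129 ± 0.05 FPKM, which were under the minimum of 0.5 FPKM for testing. The two-sided rank-sum test, run by permutation, gave p = 0.416, so that no difference was detected. How large a difference this depth could show was not computed. Of its exon bases 10.5% are shared with Gm56719, a gene model on the other strand at 0 reads.

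Neither cationic transporter passed the test. Slc7a1 had lowest, median and highest levels of 0.538, 0.624 and 0.929 FPKM in LD mice, against 0.416, 0.761 and 1.07 FPKM in ADV mice, so that 6 ADV mice were above and 2 were below the LD range. Its log2 fold change was 0.18 (95% interval -0.07 to 0.42, edgeR FDR = 0.323). Slc7a2 had medians of 5.97 and 5.98 FPKM and a log2 fold change of 0.05 (95% interval -0.20 to 0.29, edgeR FDR = 0.831). What differed to the eye was its range, from 4.88 to 7.87 FPKM in LD mice, against 2.76 to 9.51 FPKM in ADV mice, with coefficients of variation of 13.3% and 28.3%, a difference that was not tested. The median coefficient of variation over all genes tested was 12.4% and 14.3%.

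Slc1a5 and Slc36a2 had the highest coefficients of variation of the 9 tested members in ADV mice (49.5% and 78.6%). Slc1a5 ranged from 4.62 to 14.2 FPKM in LD mice (median 8.81 FPKM) and from 4.76 to 23.5 FPKM in ADV mice (median 8.96 FPKM), and the 3 ADV mice above every LD mouse were numbers 23, 24 and 27. Slc36a2 ranged from 0.282 to 1.37 FPKM (median 0.848 FPKM) and from 0.34 to 3.73 FPKM (median 0.814 FPKM), with 4 ADV mice above every LD mouse, the same 3 and number 33. The log2 fold changes were 0.24 for Slc1a5 (95% interval -0.16 to 0.63, edgeR FDR = 0.419) and 0.41 for Slc36a2 (95% interval -0.18 to 0.99, edgeR FDR = 0.345). The group medians were almost equal in both genes.

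These 2 members varied with adipocyte transcripts. The 7 adipocyte markers (Adipoq, Plin1, Cidec, Lep, Fabp4, Cfd and Retn) were all detected, none was at 0, and their summed level was 177 to 375 FPKM in LD mice, against 189 to 693 FPKM in ADV mice. The sum was weighted to Fabp4 (mean 172 FPKM in LD mice, against 225 FPKM in ADV mice), followed by Cfd (66.4 against 69.6 FPKM). Of the 7, Fabp4 alone had an FDR under 0.05 (log2 fold change 0.36, edgeR FDR = 0.0231) and none was called, although all 7 fold changes were above 0. Slc36a2 followed the logarithm of this sum with r = 0.83 (permutation p = 0.00013, adjusted p = 0.00405 over 108 relations of members with marker lists) and rho = 0.81 (permutation p = 0.0009, adjusted p = 0.0243) over the 14 LD mice. Over the 16 ADV mice it did so with r = 0.93 and rho = 0.93, each with a permutation p of 1e-05, the smallest that 100000 permutations can give, and an adjusted p of 0.00054. Without the 2 mice farthest from the median, r was 0.80 and 0.88.

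For Slc1a5 the relation to the same sum was r = 0.78 (permutation p = 0.00082, adjusted p = 0.0148) and rho = 0.75 (permutation p = 0.00273, adjusted p = 0.0421) in LD mice. In ADV mice it was r = 0.93 and rho = 0.87, each with a permutation p of 1e-05 and an adjusted p of 0.00054, and r without the 2 farthest mice was 0.71 and 0.87. Slc1a5 and Slc36a2 followed each other as well (rho 0.72 in LD mice, against 0.94 in ADV mice). With the adipocyte sum as a covariate, chosen after the values were seen, the log2 fold change of Slc1a5 was -0.18 (FDR = 0.222) and that of Slc36a2 was -0.28 (FDR = 0.189), so that both signs turned. With this covariate Slc38a2 had a log2 fold change of 0.65 (FDR = 0.0437) and Slc7a5 of 0.37 (FDR = 0.0359), the latter just under the fold change limit. The part of adipocyte content in the levels of Slc1a5 and Slc36a2 was not tested beyond this.

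**Figure D3:**
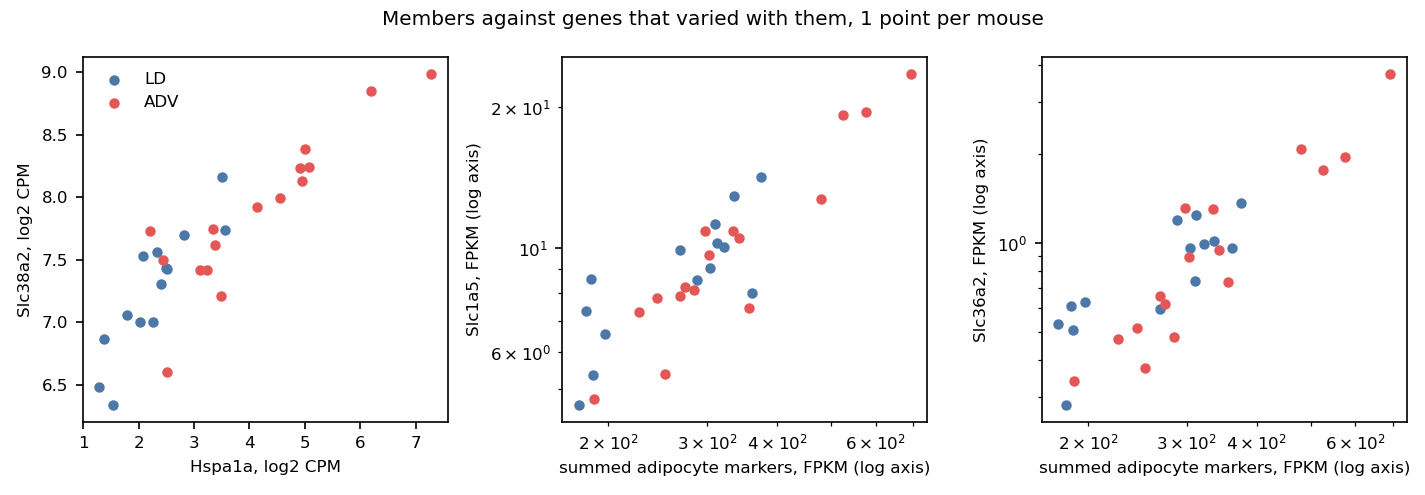
Left, log2 CPM (counts scaled to library size) of Slc38a2 against Hspa1a. Middle and right, FPKM of Slc1a5 and Slc36a2 against the summed FPKM of 7 adipocyte markers, on log axes. Each point is a mouse of the LD group (blue, n = 14) or the ADV group (red, n = 16). The ADV mouse with the highest Slc1a5 (23.5 FPKM) also had the highest Slc36a2 (3.73 FPKM) and the highest adipocyte sum (693 FPKM).

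Slc1a5 and Slc36a2 also followed the sum of 6 fibroblast markers. For Slc1a5 r was 0.85 in LD mice (permutation p = 0.00015, adjusted p = 0.00405, rho = 0.91) and 0.70 in ADV mice (permutation p = 0.00238, adjusted p = 0.0257), where it was 0.42 without the 2 farthest mice and rho was 0.57 (adjusted permutation p = 0.131). For Slc36a2 r was 0.70 in both groups (adjusted permutation p = 0.0412 in LD mice, against 0.0242 in ADV mice), and 0.55 and 0.44 without the 2 farthest mice. By rho the relation in ADV mice did not pass (rho = 0.66, adjusted permutation p = 0.0547). With the leukocyte markers r was 0.75 for Slc1a5 and 0.71 for Slc36a2 in ADV mice (adjusted permutation p = 0.0148 and 0.0264 by r, 0.0749 and 0.0499 by rho). Without the 2 farthest ADV mice these r were 0.60 and 0.57. In LD mice r was 0.57 and 0.32, and neither passed (adjusted permutation p = 0.147 and 0.595). By rho alone, Slc1a5 ran against the sum of slow fiber markers in LD mice (rho = -0.72, adjusted permutation p = 0.0499). Its r there was -0.68 (adjusted permutation p = 0.0544), and in ADV mice r was 0.22 (adjusted permutation p = 0.7). Together 6 of 54 relations in LD mice and 7 of 54 in ADV mice had an adjusted p under 0.05 by r, beside 7 and 4 by rho. By r all but 3 of these were of Slc1a5 or Slc36a2.

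The other 3 concerned Slc7a5 and Slc38a4. The endothelial markers, of which all 8 were detected, summed to 79.9 to 112 FPKM in LD mice, against 91.3 to 122 FPKM in ADV mice. Slc7a5 ran against this sum in LD mice (r = -0.75, permutation p = 0.00221, adjusted p = 0.0257, and rho = -0.76, permutation p = 0.00216, adjusted p = 0.0389) but not detectably in ADV mice (r = 0.20, permutation p = 0.46, adjusted p = 0.731). Slc38a4 ran against it in LD mice too (r = -0.79, permutation p = 0.00109, adjusted p = 0.0168, and rho = -0.78, permutation p = 0.00172, adjusted p = 0.0372), and its value in ADV mice was r = -0.49 (permutation p = 0.054, adjusted p = 0.201). Slc38a4 also ran against 6 slow fiber markers in ADV mice (r = -0.68, permutation p = 0.00409, adjusted p = 0.0368, and rho = -0.68, permutation p = 0.00472, adjusted p = 0.0499). Without the 2 farthest ADV mice r was -0.32, so that its size by r depended on them. In LD mice r was -0.57 (permutation p = 0.0308, adjusted p = 0.139) and -0.555 without the 2 farthest mice. Differences between the groups in these relations were not tested. Summed levels of the fibroblast (272 to 359 against 236 to 379 FPKM), leukocyte (14.7 to 33.8 against 13.5 to 28.9 FPKM) and Schwann cell (23.6 to 44.8 against 25.7 to 78.8 FPKM) markers overlapped between LD and ADV groups. No tested marker of these lists or of the endothelial list was called. By FDR alone the fibroblast marker Pdgfra was lower in ADV mice (log2 fold change -0.24, edgeR FDR = 0.0194). The endothelial marker Pecam1 was higher (0.16, edgeR FDR = 0.0323). Of the tested markers 0 of 6 for fibroblasts, 2 of 6 for leukocytes and 4 of 4 for Schwann cells had fold changes above 0.

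The relation to Atf4 was examined next, since ATF4 is known to induce Slc7a5, Slc3a2, Slc7a1, Slc38a2 and Slc1a5 when amino acids are short. Atf4 transcript ranged from 64.8 to 89.0 FPKM in LD mice (median 76.2 FPKM) and from 69.3 to 116 FPKM in ADV mice (median 86.9 FPKM), and 15 of 16 ADV mice were above the LD median. Atf4 passed the FDR (edgeR FDR = 0.0212) but not the limit on fold change, with a log2 difference of 0.23 (standard error 0.06). After removal of library-wise GC trends its FDR was 0.0771. With the clock score as a covariate the log2 difference of Atf4 was 0.15 (FDR = 0.403), and with heat shock genes, a covariate chosen after the values were seen, it was 0.07 (FDR = 0.646). ATF4 is controlled mainly through translation, so that the transcript is an incomplete measure of the factor.

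Within the groups, no member had a detectable slope on Atf4. The slope of each gene's log2 level on the log2 CPM of Atf4, fitted over all 30 libraries with 1 slope per group, had an FDR under 0.05 for 0 of 9 members in LD mice, where 0 of 12029 genes passed (0.0%), and for 0 of 9 in ADV mice, where 1.93% of genes passed. At an unadjusted p under 0.05 the count was 1 of 9 in each group (640 genes in LD mice and 2666 in ADV mice), and limma on log2(FPKM + 0.1) also gave 0 of 9 by FDR in each. In LD mice this was Slc7a5, whose level changed by 1.39 (standard error 0.51) log2 units per log2 unit of Atf4 (edgeR p = 0.0104, FDR = 0.885). In ADV mice it was Slc38a2, with a slope of 1.64 (standard error 0.56, edgeR p = 0.00643, FDR = 0.0913). The slope of Slc38a2 in LD mice was similar in size at 1.51 (standard error 0.82, FDR = 0.885), and that of Slc7a5 in ADV mice was 0.53 (standard error 0.34, FDR = 0.361). No slope differed between groups by FDR, for 0 of 9 members and 0 of 12029 genes, and at an unadjusted p under 0.05 the counts were 0 of 9 and 509 of 12029.

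Of 20 correlations of a member with Atf4 within a group, none had an adjusted permutation p under 0.05 by r or by rho, and 2 had an unadjusted p under 0.05 by r. For Slc7a5 in LD mice r was 0.62 (permutation p = 0.0193, adjusted p = 0.285) and rho was 0.56 (permutation p = 0.0421, adjusted p = 0.655), and r was 0.51 without the 2 mice farthest from the median in Atf4. For Slc38a2 in ADV mice r was 0.55 (permutation p = 0.0285, adjusted p = 0.285) and rho was 0.47 (permutation p = 0.0705, adjusted p = 0.655), and r was 0.40 without the 2 farthest mice. The other coefficients ran from -0.25 for Slc36a2 in ADV mice to 0.50 for Slc38a2 in LD mice. Slc3a2, the other chain of the leucine carrier, had r of 0.35 with Atf4 in LD mice, against -0.02 in ADV mice (permutation p = 0.22 and 0.933, adjusted p = 0.734 and 0.989).

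**Figure D4:**
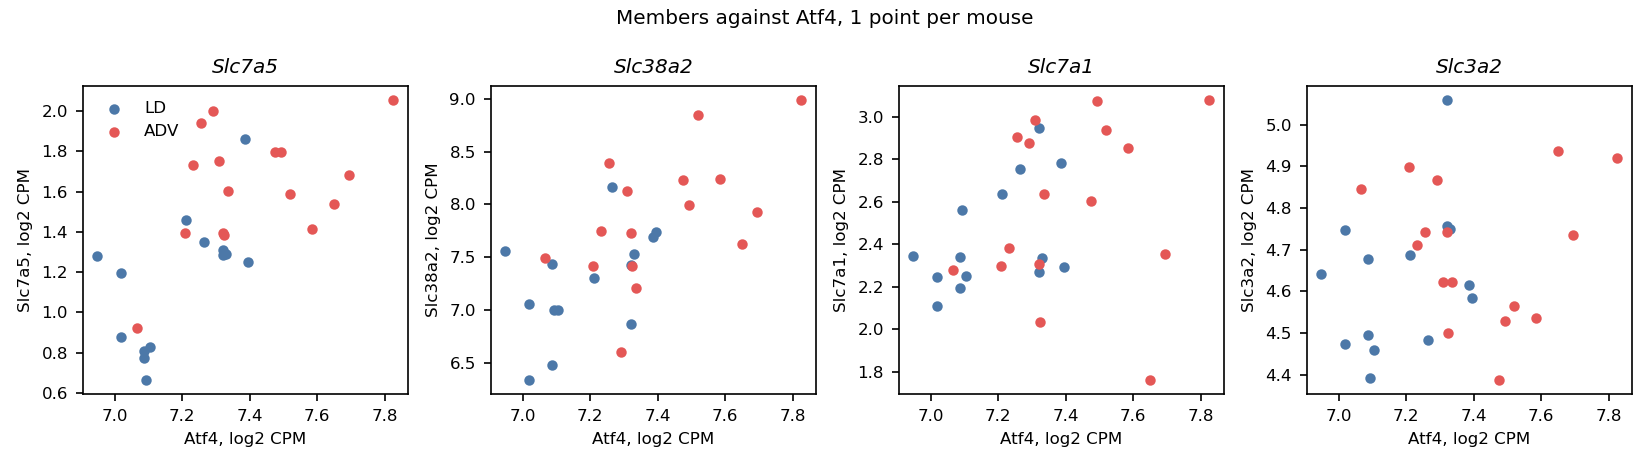
Log2 CPM of Slc7a5, Slc38a2, Slc7a1 and Slc3a2 against that of Atf4, with 1 point per mouse of the LD group (blue, n = 14) and the ADV group (red, n = 16). Slc7a5 and Slc38a2 lean upward in both groups (r = 0.62 and 0.50 in LD mice, 0.42 and 0.55 in ADV mice), but none of these passed after adjustment.

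Slc7a5 and Slc3a2, the 2 chains of 1 carrier, were not detectably correlated. In LD mice r was 0.32 (permutation p = 0.267, adjusted p = 0.533) and rho was 0.45 (permutation p = 0.108, adjusted p = 0.216), and in ADV mice r was -0.01 (permutation p = 0.964, adjusted p = 0.964) and rho was 0.02 (permutation p = 0.951, adjusted p = 0.951). Over the 36 pairs of tested members the median rho was 0.34 in LD mice, against 0.03 in ADV mice. Slc7a5 had rho of 0.54 and 0.77 with Slc7a1. With Slc38a4, Slc7a5 had rho of 0.54 in LD mice, against -0.51 in ADV mice. These pair values are descriptions over 14 and 16 mice, and within each mouse the 2 genes of a pair share its library and depth.

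Outside the members, the genes whose deviations from the group mean were most like those of Slc38a2 over the 30 mice were Hspa1a (rho 0.89), Hspa1b (rho 0.88) and Dusp16 (rho 0.86). Hspa1a and Hspa1b encode the inducible heat shock protein HSP70 and are near-identical copies whose reads could be exchanged, and Dusp16 encodes a phosphatase of MAP kinases. The likeness of Slc38a2 with Hspa1a was present in each group (rho 0.87 in LD mice, against 0.86 in ADV mice), although Hspa1a had a median of only 1.49 FPKM in LD mice, against 4.54 FPKM in ADV mice. With the summed level of Hspa1a, Hspa1b and Dnajb1 as a covariate, an alternative chosen after this likeness was seen, neither Slc38a2 nor Slc7a5 was called, as given above, and the sign of Slc38a2 turned. These genes themselves differed between the groups (log2 fold change 2.41 for Hspa1a, edgeR FDR = 0.00165), so that the schedule and the covariate cannot be fully told apart.

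For Slc7a5 the genes most like it were S100a10 (rho 0.66), Igfals (rho 0.61) and Flot1 (rho 0.61), a looser likeness than that of Slc38a2. S100a10 encodes a partner of annexin A2, Igfals a binding protein of IGF complexes and Flot1 a protein of membrane rafts. None of these 3 had an FDR under 0.05 (0.105, 0.141 and 0.15).

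Clock genes moved between the groups as well, and the members were set against them. Of 8 clock genes whose peak opposes that of Bmal1, 5 were called lower and none higher in ADV mice, among them Dbp (log2 fold change -1.66, edgeR FDR = 0.000482) and Nr1d2 (-0.70, FDR = 0.000153), and of 5 genes in phase with Bmal1, 3 were called higher, among them Bmal1 (0.64, FDR = 0.00844) and Nfil3 (1.28, FDR = 0.000489). A score of the clock state, high when Bmal1 and Npas2 are high and 6 opposing genes are low, ranged from -3.29 to 1.23 in LD mice, against -1.94 to 2.19 in ADV mice. The score itself was mostly higher in ADV mice, so that as a covariate its part and that of the schedule cannot be told apart. Within the groups 0 of 9 members had a slope on the score by FDR in either group, where 1.51% of genes passed in LD mice and 0.0333% in ADV mice. At an unadjusted p under 0.05, 2 of 9 passed in each group, beside 1734 of 12030 genes in LD mice and 987 in ADV mice.

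Slc7a8 had the steepest of the members' slopes on the clock score in LD mice at -0.26 log2 units per unit (standard error 0.08, edgeR p = 0.003, FDR = 0.0907), against 0.19 (standard error 0.12, FDR = 0.704) in ADV mice. The difference of these slopes was 0.45 (edgeR p = 0.0041, FDR = 0.126), and for Slc38a2 it was -0.44 (p = 0.0109, FDR = 0.187). No difference of slopes passed among the 9 members, where 0.881% of all genes did, and 3 of 9 had an unadjusted p under 0.05, beside 1688 of 12030 genes. The hour of sampling was not available as a covariate.

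Of the 36 other amino acid transporters of the cell surface, 15 were abundant enough to be tested, and 1, Slc38a3 (SNAT3, a glutamine carrier coupled to sodium and protons), was called. It had 31.2 ± 6.13 FPKM in LD mice, against 41.6 ± 7.41 FPKM in ADV mice, with 15 of 16 ADV mice above the LD median (log2 fold change 0.40, standard error 0.10, edgeR FDR = 0.0107). The levels of Slc38a3 and Slc38a2 within a group had rho of -0.12 in LD mice, against 0.24 in ADV mice. The most abundant gene of the list was Slc6a8, the creatine transporter, at 38.1 ± 8.05 and 45.7 ± 5.75 FPKM (log2 fold change 0.25, edgeR FDR = 0.058), and the median log2 fold change of the 15 genes was -0.03 beside 0.00 for all genes.

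**Figure D5:**
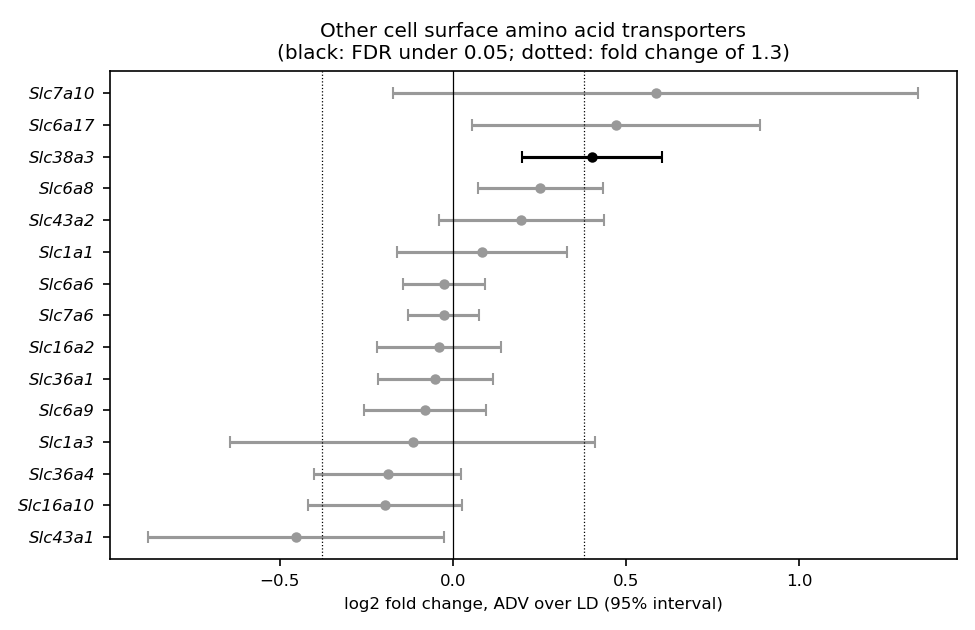
Log2 fold change of the ADV group over the LD group, with 95% intervals from edgeR, for the 15 tested genes among 36 other amino acid transporters of the cell surface. Slc38a3 (0.40) was the only gene with an FDR under 0.05 (black), and Slc7a10, whose point lies farthest to the right (0.59), had a wide interval and an FDR of 0.29.

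Inside the cell, of 14 tested genes for lysosomal and intracellular carriers none was called, and 1 had an FDR under 0.05, Slc25a38, the mitochondrial glycine carrier needed for heme synthesis (6.37 ± 0.38 against 7.34 ± 0.69 FPKM, log2 fold change 0.19, edgeR FDR = 0.0103). The median of the list was -0.06. Slc38a9, which senses arginine at the lysosome for mTORC1, differed by -0.18 on the log2 scale (edgeR FDR = 0.0851). Slc25a12, an aspartate and glutamate carrier of mitochondria, was the most abundant gene of this list (66.2 against 67.2 FPKM, FDR = 0.913).

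The genes on either side of the transporters gave counts that differed from list to list. Of 31 tested ATF4 targets outside transport, 5 were called higher and none lower, where 1.45% of all genes tested were called higher and 0.648% lower. The 5 were Atf3 (log2 fold change 2.43, edgeR FDR = 0.00337), Jdp2 (0.49, FDR = 0.0073), Ddit3 (0.56, FDR = 0.015), Ppp1r15a (0.42, FDR = 0.0242) and Asns (0.48, FDR = 0.039). The median over the 31 was 0.07, with 24 of 31 above 0, beside 6111 of 12030 genes tested. Asns encodes asparagine synthetase, Ddit3 the factor CHOP, and Ppp1r15a the phosphatase subunit GADD34 that restores translation. Of the 9 genes of the GCN2 and eIF2alpha arm, Eif2ak2, the kinase PKR, was called lower (log2 fold change -0.43, edgeR FDR = 0.00225), while Eif2ak4, which encodes GCN2 itself, had a log2 fold change of -0.14 (FDR = 0.178). Of 35 genes by which mTORC1 senses amino acids none was called, 2 had an FDR under 0.05 in the higher direction and 3 in the lower, and the lowest FDR was that of Rragd, a GTPase that docks mTORC1 at the lysosome (53.2 against 46.4 FPKM, log2 fold change -0.21, edgeR FDR = 0.00383).

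Leucine taken up through Slc7a5 is broken down by the branched-chain pathway, of which 16 genes were tested. None was called, and 2 had an FDR under 0.05, both higher in ADV mice, with a median of 0.05 over the list. These were Bckdha, a subunit of the rate-limiting dehydrogenase (66.7 ± 9.06 against 79.9 ± 8.83 FPKM, log2 fold change 0.24, edgeR FDR = 0.0107, all 16 ADV mice above the LD median), and Bckdk, the kinase that inhibits that enzyme (41.1 ± 3.15 against 45.9 ± 4.46 FPKM, log2 fold change 0.14, FDR = 0.0354).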

How the data were processed

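Male mouse gastrocnemius libraries (14 LD, 16 ADV, 1 per mouse) were grouped by their labels. Adaptors were trimmed by the authors (Trimmomatic), who used STAR (2.7.10a in the submitters' processing notes) to map to GRCm39, removed reads with a mapping quality under 10 and counted exon reads with HOMER (4.11 in the same notes). The authors deposited estimated counts, in which each mate counts as 0.5 read (38.7% of the counts above 0 were not whole), and the corresponding FPKM for 57186 rows. Strand use in counting is not given in the sources used here.

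Counts were rounded, and for each symbol the longest expressed row was kept. Genes with a mean over 20 reads and over 0.5 FPKM (12030) were compared by edgeR 4.0.16 (quasi-likelihood F test, TMM) in R 4.3.3, with Benjamini-Hochberg FDR. Intervals used 28 residual degrees of freedom. Correlations used TMM-normalized log2 CPM (for Slc38a1, log2(FPKM + 0.1)) and two-sided tests with 100000 permutations (scipy 1.17.1). Slopes used Atf4 or clock scores centred within groups. The authors' DESeq2 (version 1.42.0 here), limma 3.58.1 on log2(FPKM + 0.1) and log2(FPKM + 1), other size factors, filters and covariates were alternatives. GC content came from GENCODE vM39 (99.9% of genes tested). Motifs were searched around the starts of the rows in GRCm39. The motif window, the 2 member differences, the clock slopes, the marker correlations and the adipocyte and heat shock covariates were chosen after seeing the data.

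Members and lists were chosen with earlier results of these data known. Named are all members, Atf4 and the 3 genes most like each member of FDR under 0.05. Other names were drawn from the most abundant and up to 4 genes of lowest FDR of each list, genes overlapping a member and the clock score genes, but not every such gene is named. All adipocyte markers and Asns are named too. Slc38a9, Eif2ak4, Slc7a6, Slc7a7, Slc7a10, Slc7a11 and Dnajb1 were named after their values were seen. The fits were tested on simulated data. At 18875468.5 to 28512674 reads per library, members with about 60 reads carry a sizeable counting error.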

Additional observations from a re-analysis of the deposited data

How the results depend on the processing

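Leaving out 1 mouse at a time gave 1 to 2 members called and 1 to 2 with an FDR under 0.05, with 125 to 208 genes called higher and 58 to 99 lower over all genes (174 and 78 with all mice). Slc38a2 alone lost its call, without ADV mouse 25. Members called and members with an FDR under 0.05 were each 1 with a minimum of 100 reads and 1 FPKM, which removed Slc7a5 from the test, and each 0 with the clock score or the heat shock genes as a covariate. Members called were 1 with limma on log2(FPKM + 1), where the fold change of Slc7a5 shrank, and 1 with the adipocyte covariate, where that of Slc7a5 fell just under the limit. Genes called higher were 105 with limma on log2(FPKM + 1), 0 with the clock score and 3 with the heat shock genes. Genes called lower were 42 with the stricter minimum, 50 and 19 with limma on log2(FPKM + 0.1) and log2(FPKM + 1), 0 with the clock score, 46 with the GC trend removed, 138 with the adipocyte covariate and 2 with the heat shock genes. The cause was not tested except where named.

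Mice of the same number in both groups were not linked by the labels. Of 14 pairs, 6 had a correlation of their deviations over 0.1 (-0.26 to 0.427, median 0.0119), and 3 LD mice were closest to their own number. The latter count set each LD mouse against all 14 ADV mice with a shared number. No test of pairing was run on these values, so whether the numbers pair the mice was not decided. With the number as a block over the 28 libraries that share one, 0 members were called and 0 had an FDR under 0.05, with 94 genes called higher and 43 lower. Without the block the same libraries gave 1 member by each rule, 104 genes higher and 47 lower. The log2 fold change with the block was 0.41 for Slc7a5 (edgeR FDR = 0.0531) and 0.49 for Slc38a2 (edgeR FDR = 0.0773), and Atf4 had an edgeR FDR of 0.061. Without the block the same libraries gave 0.40 for Slc7a5 (edgeR FDR = 0.036) and 0.52 for Slc38a2 (edgeR FDR = 0.0887). Atf4 then had an edgeR FDR of 0.0395. Slc38a2 thus had no call in these libraries with or without the block.

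Some values changed sign, among them that of Slc38a2, which was called. Among log2 fold changes these were Slc7a1 (-0.11), Slc7a8 (0.084) and Slc38a2 (-0.071) with the heat shock genes, Slc7a8 (0.081) with the clock score, and Slc1a5 (-0.18) and Slc36a2 (-0.28) with the adipocyte covariate. Among Atf4 slopes in LD mice they were Slc7a2 with library size alone (-0.045) and limma (-0.066), Slc38a4 (-0.0795) and Slc1a5 (0.79) with the clock score, and Slc1a5 (0.70) and Slc36a2 (-0.072) without the 2 mice of each group farthest in Atf4. In ADV mice they were Slc3a2 with the clock score (0.012), Slc7a2 with the GC trend removed (0.013) and Slc38a4 without the farthest mice (-0.009). For the difference of slopes they were Slc38a2 with limma (-0.075) and the clock score (-0.16), Slc38a4 without the farthest mice (-0.709) and Slc1a5 with limma (0.16). Among correlations with Atf4 they were Slc3a2 in ADV mice on FPKM (0.032), and, without the 2 farthest mice, Slc7a2 (0.091), Slc1a5 (0.257) and Slc36a2 (-0.002) in LD mice. The correlation of Slc7a5 with Slc3a2 in ADV mice was 0.19 on FPKM and 0.016 without the 2 farthest mice.

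Leaving out 1 mouse at a time also turned the sign of some values, none of which had passed a test. The log2 fold change of Slc7a2 ran from -0.0052 to 0.0989. The Atf4 slope in LD mice ran from -0.247 to 0.159 for Slc7a2, -0.559 to 0.455 for Slc1a5 and -0.522 to 0.484 for Slc36a2. In ADV mice it ran from -0.225 to 0.0983 for Slc3a2, -0.606 to 0.0311 for Slc7a2, -0.668 to 0.257 for Slc7a8 and -0.0565 to 0.716 for Slc38a4. The difference of slopes ran from -0.632 to 0.0185 for Slc7a2, -0.747 to 0.477 for Slc38a2 and -0.595 to 0.462 for Slc38a4. Depth limits the members of about 60 reads (Slc7a5, Slc36a2) and Slc38a1.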
